A study of Rattus norvegicus with 18 samples.

Results

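Genes of the urothelial junction and barrier were followed across the detrusor and mucosa of the rat bladder after spinal cord injury (SCI), with and without inosine. The set was chosen by name and holds 5 of the 32754 genes counted: Cdh1 (ENSRNOG00000020151), Epcam (ENSRNOG00000015667), Krt8 (ENSRNOG00000009779), Ocln (ENSRNOG00000018297) and Tjp1 (ENSRNOG00000011077). All 5 passed the filter on low counts and were tested among 15740 genes. The study asked how injury and chronic inosine alter the transcriptome of each bladder layer, using RNA sequencing of bulk tissue depleted of ribosomal RNA. The 18 libraries formed 6 groups of 3, with detrusor (the smooth muscle layer) and mucosa (urothelium with lamina propria) taken under each of the treatments Control, SCI-vehicle and SCI-inosine. SCI-vehicle and SCI-inosine animals were male Sprague Dawley rats aged 6 to 7 weeks at surgery, whose cord was fully cut at vertebral level T8. SCI-inosine rats then received inosine at 225 mg/kg each day into the peritoneum for 8 weeks, and SCI-vehicle rats received 12 mM sodium bicarbonate buffer over the same period. Control rats were noninjured and had no treatment by their labels, and every group was labelled WT. Control therefore differed from SCI-vehicle in both the injury and the vehicle injections.

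The urothelium is the stratified epithelium that lines the bladder and keeps urine from the tissue beneath. Its cells are held together by adherens junctions, built on cadherins that bind across the gap between neighbours, and are sealed near the urine by tight junctions, in which claudins and occludin are tied to the actin skeleton by the ZO scaffold proteins. Smooth muscle cells do not form such an epithelium, so in a clean detrusor dissection transcripts specific to epithelium are expected to be scarce. In the set, Cdh1 encodes E-cadherin, the cadherin of epithelial adherens junctions. Epcam encodes an epithelial cell adhesion molecule, and Krt8 encodes keratin 8, an intermediate filament protein of simple epithelia and urothelium. Ocln encodes occludin, a membrane protein of the tight junction, and Tjp1 encodes ZO-1, the cytoplasmic scaffold of tight junctions, which is also made in endothelium and many other cells.

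The 250 bases before the start were read from RefSeq (build GRCr8) for 4 of the 5 genes, with Cdh1 unmatched. The E-box CAGGTG, searched on both strands, which is the recognition letters of the Snail and ZEB factors known for repressing epithelial genes, was found once in Epcam, once in Krt8 and at 2 places in Ocln, and not in Tjp1. It was present in 15.9% of 33469 promoter windows of that length. The 30 bases around each match are shown 5′ to 3′ on the gene's strand, with the E-box in capitals, because these windows of Epcam, Krt8 and Ocln held letters that the window of Tjp1 did not. The window of Cdh1 was not searched. All 4 lie on the minus strand, at chr6:12649826-12649855 for Epcam, chr7:135010536-135010565 for Krt8, and chr2:33441318-33441347 and chr2:33441249-33441278 for Ocln.
Epcam, 165 to 160 bases before the start: ccgggcggcgcgCACCTGgagagggggtgg
Krt8, 214 to 209 bases before the start: ctctgctgccctCACCTGagtcctgtccgg
Ocln, 137 to 132 bases before the start: ctctgctagctcCAGGTGgtgagcccggcc
Ocln, 68 to 63 bases before the start: ccatcggagtttCAGGTGaatgggtcaccc
The Sp1 letters GGGCGG (either strand) were found 4 times in Epcam and in none of the other 3 windows, against 30.5% of all windows. The grainyhead-like letters AACCGGTT were in none of the 4 windows (0.146% of all windows), and the looser form AACCNGTT was found once, in Tjp1 (1.76%). The windows of Epcam, Krt8, Ocln and Tjp1 held 75.6%, 60%, 66.4% and 30.4% G and C, against a median of 51.2%. The Ocln and Tjp1 starts lay 1009 and 179658 bases inside the annotated gene, and the Krt8 start coincided with an ATG, so these windows may not be the promoters used in the bladder. A match is only a run of letters, and binding was not measured.

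Library totals ranged from 3255012 to 6810496 counts (median 5030414). Levels are given as CPM (counts scaled to a common library size) with TMM, a normalisation that adjusts library sizes for differences in composition, and were not set against each other between genes because transcript lengths were not used. In bulk tissue, fewer cells of a type and less RNA per cell cannot be told apart. The libraries of a group are biological replicates by the study's description, and the labels do not say whether detrusor and mucosa libraries of the same number came from 1 bladder. As a measure of mucosal transcripts, 312 other genes were used whose level in Control mucosa exceeded that in Control detrusor more than 4-fold (adjusted p under 0.05) and was above 50 CPM. Being chosen on the Control libraries, these genes are favoured to be low in Control detrusor. SCI-vehicle detrusor replicate 1 stood apart on this measure. The 312 genes took 1.74% of its counts, against 0.465% to 0.560% in Control detrusor, 0.688% and 0.683% in replicates 2 and 3 of SCI-vehicle detrusor, 0.724%, 1.10% and 0.944% in SCI-inosine detrusor replicates 1, 2 and 3, and 6.14% to 7.07% in mucosa. The main detrusor comparisons that use that library, directly or through a shared fit, are given with and without it.

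Of the 5 genes, 4 were enriched in mucosa, the layer that holds the urothelium together with the lamina propria. In Control animals Cdh1, Epcam, Krt8 and Ocln were 94.0-fold, 64.3-fold, 24.1-fold and 21.5-fold higher in mucosa than in detrusor, whereas Tjp1 stood at about the same level in both layers. The folds rest on few counts in detrusor, and without Control detrusor replicate 3 those of Epcam, Krt8 and Ocln were 108-fold, 36.1-fold and 53.1-fold. Without Control detrusor replicate 2 that of Ocln was 14.0-fold, and without Control mucosa replicate 1 that of Krt8 was 15.4-fold. All 4 genes stayed called without any 1 library.

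Cdh1 was at 3.88, 3.38 and 6.14 CPM in the Control detrusor libraries and at 602, 247 and 389 CPM in Control mucosa. The counts behind the detrusor values were 16, 17 and 21. Mucosa lay far above detrusor with no overlap, as 30.5% of all genes did, and the log2 difference was 6.55 ± 0.99 (SE, n = 3 against 3; adjusted p = 5.51e-05, edgeR quasi-likelihood test). Among the 15740 genes, Cdh1 was number 76 when ordered by this difference.

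Epcam was at 1.21, 1.99 and 5.56 CPM in Control detrusor and at 231, 120 and 187 CPM in Control mucosa. The counts in detrusor were 5, 10 and 19, so its low level there was the less precise one. The log2 difference was 6.01 ± 0.95 (SE; adjusted p = 8.24e-05, edgeR), at number 134 of all genes.

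Krt8 was at 8.00, 3.77 and 15.2 CPM in Control detrusor and at 362, 120 and 147 CPM in Control mucosa. Control mucosa replicate 1 stood above the other Control mucosa libraries in this gene. The log2 difference was 4.59 ± 0.81 (SE; adjusted p = 0.000220, edgeR), at number 422.

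Ocln was at 0.970, 0.199 and 3.51 CPM in Control detrusor, which rests on only 4, 1 and 12 counts, and at 40.9, 18.1 and 32.6 CPM in Control mucosa. The log2 difference was 4.43 ± 0.84 (SE; adjusted p = 0.000410, edgeR), at number 459.

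Tjp1 was at 471, 426 and 402 CPM in Control detrusor and at 395, 453 and 390 CPM in Control mucosa. The layers overlapped, and the log2 difference was -0.07 ± 0.12 (SE; 95% interval -0.33 to 0.19; adjusted p = 0.677, edgeR). Its place by this difference was number 9019, in the middle of the genes tested. Tjp1 also varied least, with its highest library at 1.62 times the lowest over the 9 detrusor libraries and 1.16 times over the 9 mucosa libraries. For Cdh1, Epcam, Krt8 and Ocln the highest detrusor library was 51, 75.5, 32.7 and 78.9 times the lowest, and the highest mucosa library 3.23, 3.09, 4.77 and 3.82 times.

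**Figure D1:**
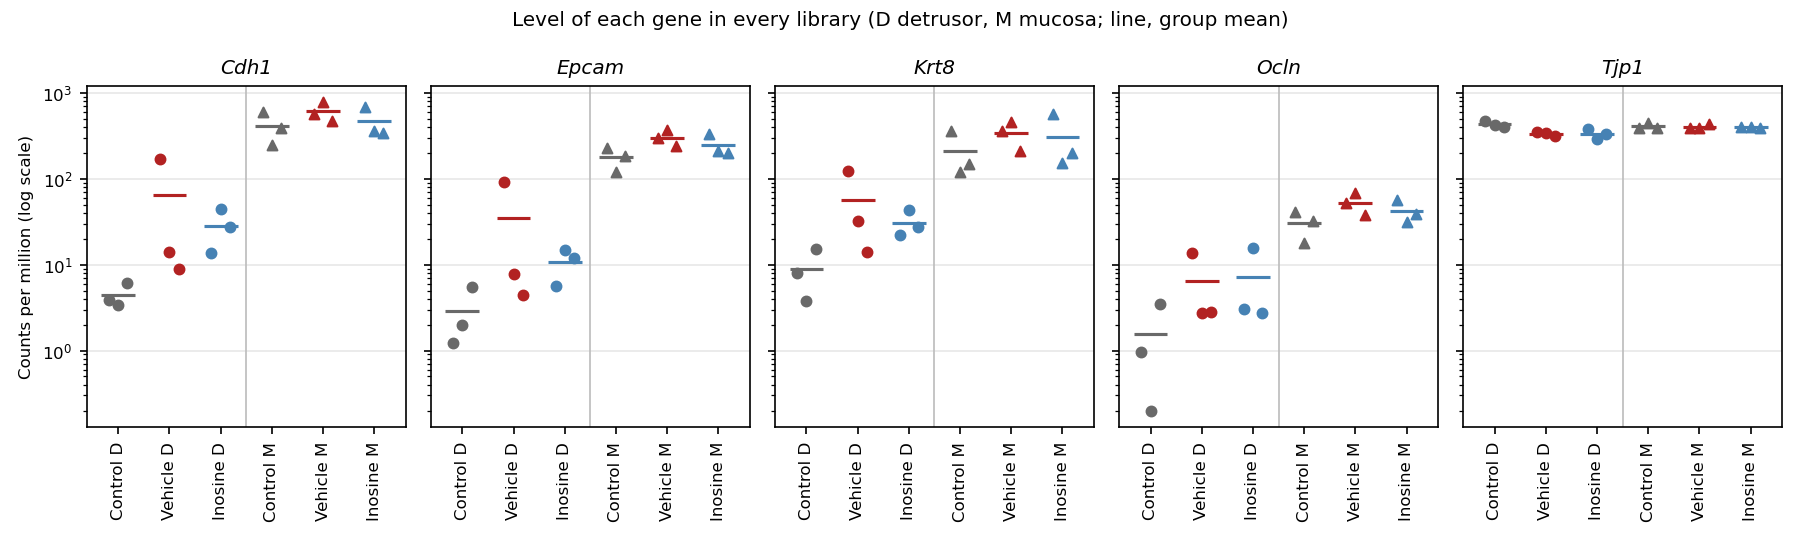
Level of each of the 5 genes in every library, as CPM on a log axis, by group on the horizontal axis. Each point is 1 of 18 libraries (circles for detrusor, triangles for mucosa) and the line is the group mean. SCI-vehicle detrusor replicate 1 stands at 172 CPM for Cdh1 against 14.2 and 8.97 CPM in the other libraries of its group, while Tjp1 stays between 291 and 471 CPM in detrusor.

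The same 4 genes were higher in mucosa within each injured group. In Control, 4 of the 5 were called higher in mucosa and 0 lower, where 23.3% of all genes tested were higher. In SCI-vehicle the count was 4 of 5 against a background of 25.4%, and in SCI-inosine 4 of 5 against 22.8%. The log2 differences in SCI-vehicle were 3.25 for Cdh1, 3.14 for Epcam, 2.62 for Krt8 and 3.07 for Ocln, all smaller than in Control, and without SCI-vehicle detrusor replicate 1 they were 5.73, 5.62, 3.91 and 4.25. In SCI-inosine they were 4.05, 4.53, 3.32 and 2.54. The values with all libraries each had an adjusted p between 0.000366 and 0.00578 by edgeR. Those without SCI-vehicle detrusor replicate 1 had one between 7.02e-07 and 0.000356 by edgeR.

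Tjp1 was not called in either injured group at these settings, although its mucosa libraries all lay above its detrusor libraries, as did those of 34.3% of all genes in SCI-vehicle and 28% in SCI-inosine. The log2 difference was 0.27 in SCI-vehicle (adjusted p = 0.0811, edgeR) and 0.26 in SCI-inosine (adjusted p = 0.0912, edgeR). DESeq2 gave an adjusted p of 0.0461 in SCI-inosine, and leaving out SCI-inosine detrusor replicate 1 gave 0.0269 by edgeR. The median log2 difference over all genes in these comparisons lay at 0.16 and 0.11.

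In detrusor, Cdh1, Epcam and Krt8 reached their highest detrusor levels in SCI-vehicle replicate 1, and the Control libraries held the lowest level of each of these genes and of Ocln. No gene of the set passed the adjusted threshold in SCI-vehicle versus Control by edgeR. Cdh1 stood at 15.0-fold, Epcam at 12.4-fold, Krt8 at 6.53-fold and Ocln at 4.37-fold the Control level, while Tjp1 stood at 0.789-fold.

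Cdh1 in SCI-vehicle detrusor was at 172, 14.2 and 8.97 CPM, and in SCI-inosine detrusor at 13.6, 44.3 and 27.2 CPM. All 6 libraries of injured rats lay above the 3 Control libraries. This held for no other gene of the set, and 4.03% of all genes showed it in detrusor. The log2 fold change was 3.91 ± 1.05 in SCI-vehicle (SE; 95% interval 1.60 to 6.22; adjusted p = 0.201, edgeR) and 2.70 ± 1.05 in SCI-inosine (95% interval 0.40 to 5.00; adjusted p = 0.312, edgeR). Without SCI-vehicle replicate 1 the value in SCI-vehicle was 1.41 ± 0.49, and that in SCI-inosine was 2.69 ± 0.45 with an adjusted p of 0.0433 by edgeR, so that Cdh1 then passed the threshold (background 0.357%).

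Epcam was at 91.5, 7.80 and 4.49 CPM in SCI-vehicle detrusor and at 5.71, 14.6 and 11.9 CPM in SCI-inosine detrusor. SCI-vehicle replicate 3 lay within the Control range, and the SCI-inosine libraries all lay above it, the lowest by a narrow margin, as did those of 9.62% of all genes. On the log2 scale Epcam stood 3.64 ± 1.07 above Control in SCI-vehicle (SE; adjusted p = 0.222, edgeR) and 1.94 ± 1.08 above it in SCI-inosine (adjusted p = 0.446, edgeR). Without SCI-vehicle replicate 1 the former was 1.12.

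Krt8 was at 123, 32.0 and 14.0 CPM in SCI-vehicle detrusor and at 21.9, 43.3 and 27.4 CPM in SCI-inosine detrusor. All SCI-inosine libraries were above the highest Control library, as in 9.62% of all genes. SCI-vehicle replicate 3 was below that Control library. Its log2 fold change was 2.71 ± 0.73 in SCI-vehicle (SE; adjusted p = 0.202, edgeR) and 1.83 ± 0.73 in SCI-inosine (adjusted p = 0.321, edgeR). Leaving out SCI-vehicle replicate 1 gave 1.40 for the former.

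Ocln was at 13.7, 2.73 and 2.80 CPM in SCI-vehicle detrusor and at 3.03, 15.7 and 2.76 CPM in SCI-inosine detrusor. A single library in each injured group was high, SCI-vehicle replicate 1 and SCI-inosine replicate 2, and the others lay below the highest Control library. For Ocln the log2 fold change was 2.13 ± 1.02 in SCI-vehicle (SE; adjusted p = 0.411, edgeR) and 2.29 ± 1.02 in SCI-inosine (adjusted p = 0.357, edgeR). Without SCI-vehicle replicate 1 the former was 0.92, and without SCI-inosine replicate 2 the latter was 0.99.

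Tjp1 lay below Control. It was at 348, 347 and 319 CPM in SCI-vehicle detrusor and at 385, 291 and 329 CPM in SCI-inosine detrusor, and all 6 libraries lay below the 3 Control libraries, as 5.02% of all genes did. The log2 fold change was -0.34 ± 0.14 in SCI-vehicle (SE; 95% interval -0.65 to -0.03; adjusted p = 0.336, edgeR) and -0.37 ± 0.14 in SCI-inosine (95% interval -0.67 to -0.06; adjusted p = 0.305, edgeR). Without SCI-vehicle replicate 1 the value in SCI-vehicle was -0.37.

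Counted over the set, SCI-vehicle versus Control in detrusor gave 0 of 5 genes called by edgeR (background 0.0763%) and 1 by DESeq2, Cdh1 with an adjusted p of 0.0270 (background 2.47%). At an unadjusted p under 0.05, 3 were higher (background 7.56%) and 1 was lower (background 5.43%). With no filter on low counts, edgeR called 3 genes (background 0.807%), Cdh1, Epcam and Krt8, with adjusted p-values of 0.0286, 0.0459 and 0.0304. SCI-inosine versus Control gave 0 of 5 by edgeR (background 0.293%) and 0 by DESeq2 (background 2.63%), with 3 higher (background 7.79%) and 1 lower (background 5.86%) at the unadjusted threshold. The median log2 fold change of the 5 genes was 2.71 in SCI-vehicle and 1.94 in SCI-inosine, beside medians of 0.01 and -0.01 over all genes. Without SCI-vehicle replicate 1 the median in SCI-vehicle was 1.12, 0 genes were called by edgeR (background 0.0255%), and only Cdh1 and Krt8 were higher at the unadjusted threshold (background 5.61%). In SCI-inosine, whose fit shares that library, the median was then 1.92 and only Cdh1 was called by edgeR (background 0.357%). Epcam, Krt8, Ocln and Tjp1 stood at 1.92, 1.82, 2.28 and -0.37, with adjusted p-values from 0.138 to 0.320 (edgeR). At the unadjusted threshold 4 genes were then higher and 1 was lower. The share over all genes was not taken for that fit, so nothing is read from this count. Both comparisons use the same 3 Control libraries. When the mean of both injured groups was set against Control, the log2 fold change was 3.30 for Cdh1, 2.79 for Epcam, 2.27 for Krt8, 2.21 for Ocln and -0.35 for Tjp1. None of the 5 passed in that contrast (adjusted p from 0.171 to 0.285, edgeR), all 5 had an unadjusted p under 0.05 (background 16.1%), and 0.413% of all genes were called. The values of this contrast were 2.05, 1.52, 1.61, 1.60 and -0.37 in the same order without SCI-vehicle replicate 1. None was then called (smallest adjusted p 0.0913, edgeR; background 0.37%), and all but Ocln had an unadjusted p under 0.05 (background 14.3%).

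**Figure D2:**
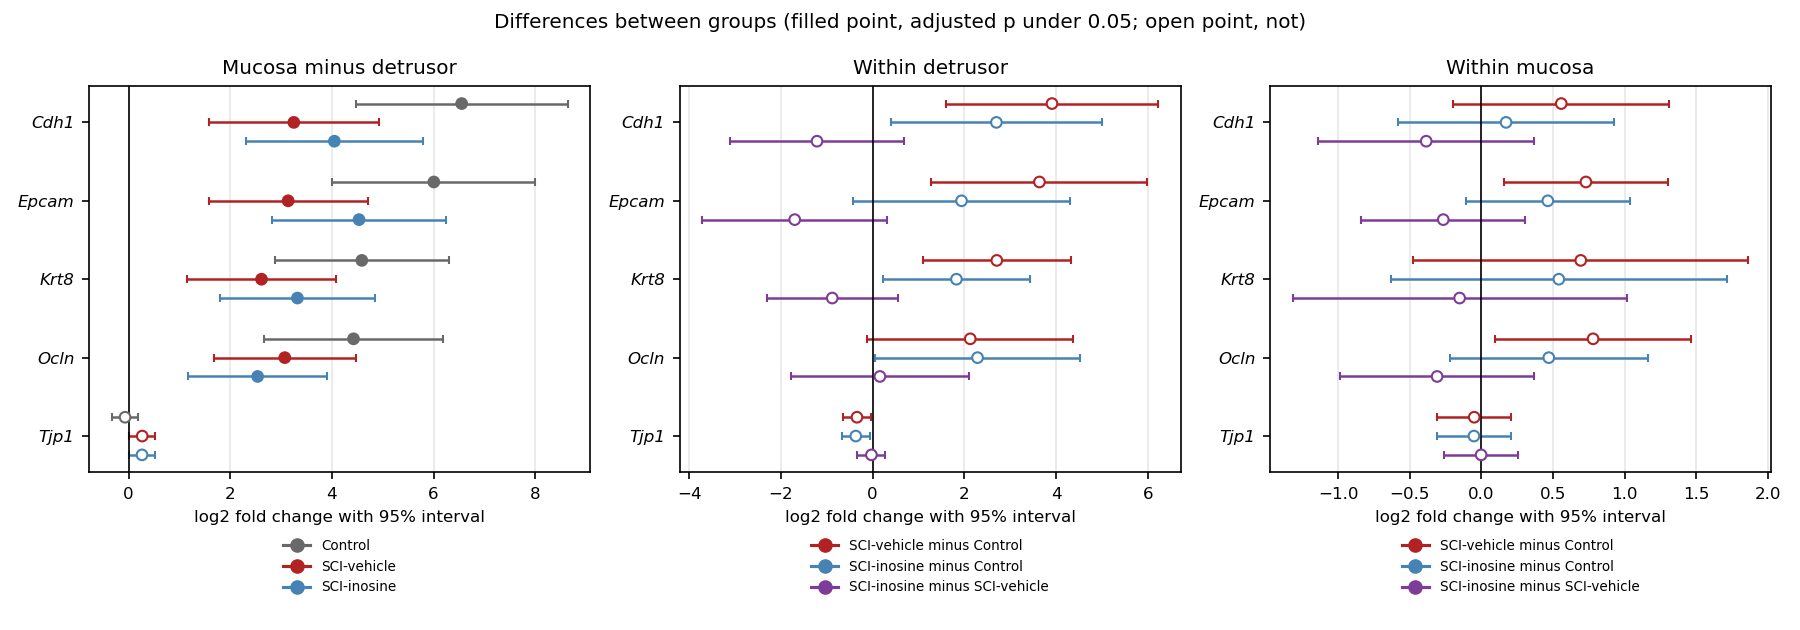
Log2 fold change of each gene with its 95% interval, on the horizontal axis, for mucosa minus detrusor and for the comparisons between groups within each layer, with filled points where the adjusted p was under 0.05. The interval of Cdh1 in detrusor spans 1.60 to 6.22 in SCI-vehicle versus Control, and those of Tjp1 are narrow in every comparison.

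Other mucosal transcripts were followed beside these values. Of the 312 genes higher in mucosa, 1 was called in detrusor in SCI-vehicle versus Control and 5 in SCI-inosine versus Control, all higher, with median log2 fold changes of 0.93 and 0.86. The 342 genes chosen in the same way as higher in detrusor had medians of -0.41 and -0.38. Both lists were chosen on the same Control detrusor libraries that are the baseline here, which favours medians of these signs, so nothing is read from the signs. A covariate was then added, the median place of the 312 genes in each library between mean Control detrusor and mean Control mucosa. With it, the log2 fold changes in SCI-vehicle were 1.00 ± 0.31 for Cdh1, 0.75 ± 0.45 for Epcam, 1.14 ± 0.46 for Krt8 and 0.56 ± 0.94 for Ocln (SE). These 4 values were smaller than those without the covariate, whereas Tjp1 stood at -0.34 in both fits. The covariate came from genes chosen for the difference between Control layers that these 4 genes show and Tjp1 lacks. Smaller values for the 4 were favoured by that choice, so nothing is read from the contrast with Tjp1. In SCI-inosine the values with the covariate were 1.24, 0.54, 0.95, 1.28 and -0.36 for Cdh1, Epcam, Krt8, Ocln and Tjp1. None of the 5 was called in the covariate fit by edgeR in SCI-vehicle (background 0.0191%) or SCI-inosine (background 0.0636%), and the smallest adjusted p was 0.224. At an unadjusted p under 0.05, Cdh1 and Krt8 passed in SCI-vehicle (background 8.21%), and Cdh1 and Tjp1 in SCI-inosine (background 9.06%). Without SCI-vehicle replicate 1 the covariate fit gave 0.86, 0.60, 1.04, 0.27 and -0.24 in SCI-vehicle for Cdh1, Epcam, Krt8, Ocln and Tjp1. In SCI-inosine it then gave 0.50, -0.29, 0.44, -0.75 and 0.09 in the same order. The signs of Epcam, Ocln and Tjp1 in SCI-inosine thus rested on that library. The part of mucosal transcripts in these differences was not tested, by this fit or otherwise.

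The 4 epithelial genes were placed for each detrusor library on a scale that starts at 0% for the mean level of Control detrusor and is full at that of Control mucosa. SCI-vehicle replicate 1 lay at 41.1% for Cdh1, 50.3% for Epcam, 56.9% for Krt8 and 41.8% for Ocln. The place of Krt8 was 91.4% without Control mucosa replicate 1, the highest Control mucosa library in that gene. The 312 mucosal genes had a median place of 25.5% in the same library, below all 4. In SCI-vehicle replicate 2 the places were 2.39%, 2.77%, 11.5% and 4.04% for the same genes in that order, and in replicate 3 they were 1.10%, 0.890%, 2.50% and 4.30%. The medians of the mucosal genes there were 2.31% and 1.59%.

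SCI-inosine replicate 2 was the library in which the genes parted most. Ocln lay at 48.6%, on 93 counts, while Cdh1, Epcam and Krt8 lay at 9.75%, 6.65% and 17.1% and the mucosal median at 10.4%. SCI-inosine replicates 1 and 3 had mucosal medians of 3.97% and 8.63%, and their places for the 4 genes ran from 1.58% to 6.45% and from 4.16% to 9.18%. SCI-inosine replicate 2 also had the fewest genes with a count, 14126, against a highest value of 17842 in detrusor. Krt8 had the highest place of the 4 in SCI-vehicle replicates 1 and 2 and in SCI-inosine replicates 1 and 3.

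**Figure D3:**
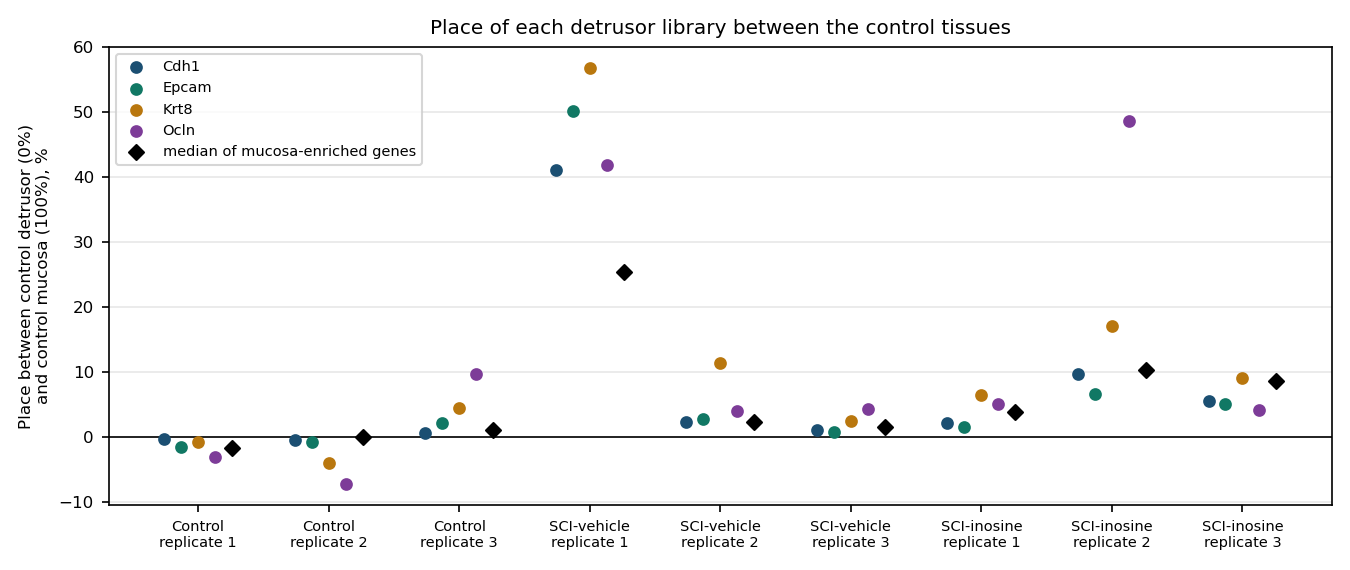
Place of each detrusor library between the mean of Control detrusor (0%) and that of Control mucosa, in percent of the way, for Cdh1, Epcam, Krt8 and Ocln, with the median of 312 mucosa-enriched genes. In SCI-vehicle replicate 1 the genes lie between 41.1% and 56.9% (Krt8 at 91.4% without Control mucosa replicate 1) and the median at 25.5%, and in SCI-inosine replicate 2 Ocln lies apart at 48.6%.

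Between the 2 injured groups, no gene of the set passed the test in detrusor. By edgeR 0 of 5 were called (background 0%), 0 had an unadjusted p under 0.05 (background 4.38%), and DESeq2 called 0 (background 0.0637%). The log2 fold change of SCI-inosine versus SCI-vehicle was -1.21 ± 0.87 for Cdh1, -1.70 ± 0.92 for Epcam, -0.88 ± 0.65 for Krt8, 0.16 ± 0.88 for Ocln and -0.03 ± 0.14 for Tjp1 (SE). Intervals were wide for the 4 epithelial genes, from -3.12 to 0.69 for Cdh1 and from -3.71 to 0.31 for Epcam. The direction of Cdh1, Epcam and Krt8 rested on SCI-vehicle replicate 1, without which they were at 1.29, 0.80 and 0.42, and Tjp1 was at 0.00. Ocln was at 1.37 without that library and turned negative without SCI-vehicle replicate 2 (-0.21), SCI-vehicle replicate 3 (-0.20) or SCI-inosine replicate 2 (-1.15). None of the 5 was called without SCI-vehicle replicate 1 either (smallest adjusted p 0.966, edgeR). Cdh1 alone then had an unadjusted p under 0.05 (0.0182, edgeR). In the other direction, Cdh1, Epcam and Krt8 had one without SCI-vehicle replicate 3, at -1.73, -2.22 and -1.34. Epcam also had one without SCI-vehicle replicate 2, at -2.17. The shares over all genes were not taken, so nothing is read from these unadjusted values. An effect of inosine on these genes in detrusor was thus not detectable with these libraries.

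In mucosa, where these genes are abundant, the mean of each of the 4 epithelial genes was higher in SCI-vehicle and SCI-inosine than in Control, and none passed the adjusted threshold. Epcam and Ocln had the smallest p-values, at 1.66-fold and 1.72-fold the Control level in SCI-vehicle.

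Epcam was at 298, 370 and 239 CPM in SCI-vehicle mucosa and at 336, 211 and 202 CPM in SCI-inosine mucosa. The SCI-vehicle libraries all lay above the highest Control library, at 231 CPM, and the SCI-inosine libraries overlapped with Control. Non-overlap upward in SCI-vehicle was seen in 8.34% of all genes. The log2 fold change was 0.73 ± 0.26 in SCI-vehicle (SE; adjusted p = 0.408, edgeR) and 0.46 ± 0.26 in SCI-inosine (adjusted p = 0.998, edgeR).

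Ocln was at 52.2, 69.3 and 37.6 CPM in SCI-vehicle mucosa and at 57.3, 31.9 and 38.5 CPM in SCI-inosine mucosa. The groups overlapped with Control, whose replicate 1 was at 40.9 CPM. The log2 fold change was 0.78 ± 0.31 in SCI-vehicle (SE; adjusted p = 0.439, edgeR) and 0.47 ± 0.31 in SCI-inosine (adjusted p = 0.998, edgeR).

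Cdh1 was at 575, 798 and 479 CPM in SCI-vehicle mucosa and at 698, 366 and 347 CPM in SCI-inosine mucosa. Its log2 fold changes versus Control were 0.56 ± 0.34 and 0.17 ± 0.34 (SE), with overlap in both. In SCI-vehicle the value ran from 0.29 without Control replicate 2 to 0.91 without Control replicate 1. Krt8 spread most, at 357, 464 and 211 CPM in SCI-vehicle and 575, 151 and 203 CPM in SCI-inosine mucosa, and its log2 fold changes were 0.69 ± 0.53 and 0.54 ± 0.53. In SCI-vehicle that of Krt8 ran from 0.41 without Control replicate 2 to 1.31 without Control replicate 1. The highest library of each group in Krt8 was replicate 1 in Control and SCI-inosine and replicate 2 in SCI-vehicle.

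Tjp1 was at 392, 396 and 433 CPM in SCI-vehicle mucosa and at 406, 406 and 396 CPM in SCI-inosine mucosa. Its log2 fold changes versus Control were -0.05 ± 0.12 in both injured groups (SE), with 95% intervals of -0.31 to 0.21 in SCI-vehicle and -0.31 to 0.20 in SCI-inosine.

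By edgeR 0 of 5 genes were called in SCI-vehicle versus Control in mucosa (background 0%), 2 had an unadjusted p under 0.05, Epcam and Ocln, both higher (background 4.69%), and DESeq2 called 0 (background 0.547%). Over the left-out libraries the log2 fold change ran from 0.505 to 0.928 for Epcam and from 0.505 to 1.021 for Ocln. Neither gene passed the unadjusted threshold without Control replicate 2 (0.505 for both) or without SCI-vehicle replicate 2 (0.578 and 0.557). Ocln also fell short of it without SCI-vehicle replicate 1, at 0.794. In SCI-inosine versus Control edgeR called 0 of 5 (background 0%), 0 passed unadjusted (background 5%), and DESeq2 called 0 (background 0.137%). In SCI-inosine versus SCI-vehicle the counts were 0 by edgeR (background 0.00635%), 0 unadjusted (background 5.53%) and 0 by DESeq2 (background 0.11%). The log2 fold changes of that comparison were -0.39 for Cdh1, -0.27 for Epcam, -0.15 for Krt8, -0.31 for Ocln and -0.00 for Tjp1, all with intervals that spanned 0. The 312 mucosal genes had median log2 fold changes in mucosa of 0.02 in SCI-vehicle and -0.01 in SCI-inosine versus Control, and of -0.13 in SCI-inosine versus SCI-vehicle. The 342 detrusor genes had medians of 0.11, 0.42 and 0.36 in the same comparisons, of which the last shares no library with the choice of the lists. The 342 detrusor genes took 2.56% to 6.40% of counts in Control mucosa, 3.40% to 6.37% in SCI-vehicle mucosa and 4.13% to 8.87% in SCI-inosine mucosa, and the part of this spread in the values was not tested.

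The difference between the layers in their response was tested directly as an interaction, detrusor minus mucosa. For SCI-vehicle versus Control it was 3.30 ± 1.17 on the log2 scale for Cdh1 (SE; adjusted p = 0.313, edgeR), 2.87 ± 1.17 for Epcam, 1.97 ± 1.01 for Krt8, 1.35 ± 1.12 for Ocln and -0.34 ± 0.17 for Tjp1. By edgeR 0 of 5 were called (background 0.121%) and Cdh1 and Epcam had an unadjusted p under 0.05 (background 11%), and DESeq2 called 0 (background 1.64%). Without SCI-vehicle detrusor replicate 1 the interactions were 0.82, 0.39, 0.69, 0.18 and -0.36 for the genes in the same order. For SCI-inosine versus Control the interaction was 2.51 for Cdh1, which alone had an unadjusted p under 0.05 (background 10.4%), and -0.33 for Tjp1, and 0 were called by edgeR (background 0%) or by DESeq2 (background 0.552%). For SCI-inosine versus SCI-vehicle 0 were called by edgeR (background 0%), unadjusted (background 3.87%) or by DESeq2 (background 0%). Over the left-out libraries that interaction ran from -1.32 to 1.68 for Cdh1, with a smallest unadjusted p of 0.0160 (edgeR). The share over all genes was not taken there. The responses of the 5 genes in the layers were therefore not shown to differ.

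The proportions among the epithelial genes differed between the layers. Ratios of the counts of 2 genes within a library do not depend on library size or on its scaling, and 6 pairs were compared between mucosa and detrusor by exact permutation of the tissue labels within each treatment (two-sided, 8000 splits, smallest possible p = 0.00025). The comparison was added after the levels had been seen. A ratio itself depends on transcript lengths, so only its difference between layers is read.

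Cdh1 over Krt8 had a median of 1.72 over 9 mucosa libraries (range 1.21 to 2.64) and 0.642 over 9 detrusor libraries (range 0.410 to 1.40). The mean difference was 1.40 on the log2 scale (exact permutation p = 0.00025, adjusted over the 6 pairs 0.00075). The highest detrusor library was SCI-vehicle replicate 1, and without it the detrusor ratios ended at 1.02, below every mucosa library.

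Epcam over Krt8 had a median of 0.993 in mucosa (range 0.586 to 1.39) and 0.340 in detrusor (range 0.164 to 0.743), a difference of 1.41 on the log2 scale (exact permutation p = 0.00025, adjusted 0.00075). Relative to Cdh1 and to Epcam, Krt8 counts were thus higher in detrusor than in mucosa. The same was true of Ocln by the medians, with Cdh1 over Ocln at a median of 11.9 in mucosa and 4.37 in detrusor (exact permutation, adjusted p = 0.00700) and Epcam over Ocln at 5.72 and 1.86 (exact permutation, adjusted p = 0.0101). The layers overlapped in both pairs. Cdh1 over Ocln ranged from 8.995 to 14.7 in mucosa and from 1.72 to 12.5 in detrusor. Epcam over Ocln ranged from 5.24 to 6.59 in mucosa and from 0.936 to 7 in detrusor. Ocln counts in detrusor were as low as 1, where the 0.5 added to each count bears on the ratio.

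Cdh1 over Epcam was not shown to differ, with medians of 2.06 in mucosa and 1.98 in detrusor (log2 difference -0.01; exact permutation p = 0.971), and Krt8 over Ocln had medians of 6.62 and 7.44 (log2 difference -0.13; exact permutation p = 0.657). Without SCI-vehicle detrusor replicate 1 the adjusted p-values of the 4 pairs that differed were from 0.00075 to 0.0015, and without SCI-inosine detrusor replicate 2 they were from 0.00225 to 0.0120.

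**Figure D4:**
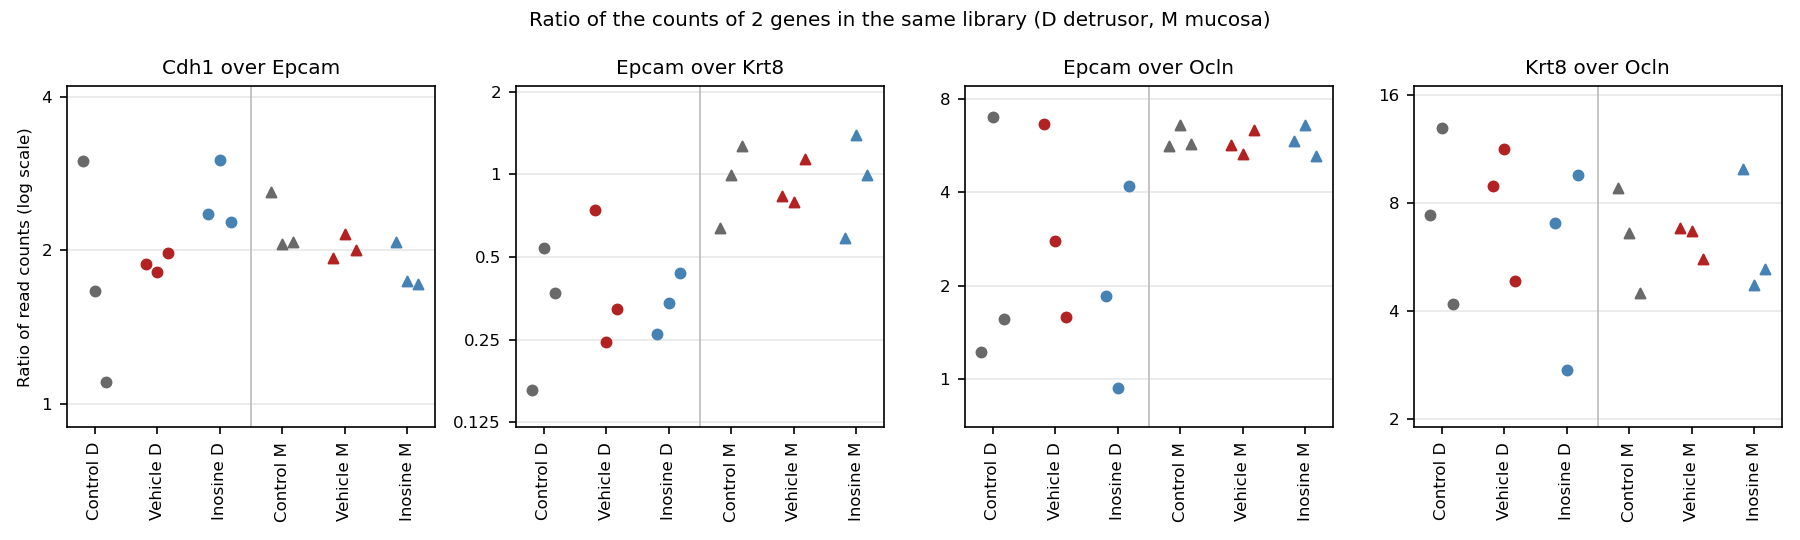
Ratio of the counts of 2 genes within each library, on a log axis, for 4 of the 6 pairs, with the groups of detrusor (circles) and mucosa (triangles) side by side. Epcam over Krt8 is 0.586 to 1.39 in mucosa and 0.164 to 0.743 in detrusor, while Cdh1 over Epcam is 1.72 to 2.61 in mucosa and 1.10 to 3.01 in detrusor.

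Within a layer the epithelial genes varied together from library to library. On log2 CPM over the 9 detrusor libraries, Pearson's r with Cdh1 was 0.97 for Epcam, 0.95 for Krt8 and 0.86 for Ocln (Spearman's rho 0.97, 0.97 and 0.68), and -0.66 for Tjp1 (rho -0.70). Of the 15739 other genes, 29 had a higher r with Cdh1 than Epcam did. Without SCI-vehicle replicate 1 the values of r were 0.93, 0.91, 0.84 and -0.86. Over the 9 mucosa libraries the closest pair was Epcam and Ocln, with r = 0.98 (rho 0.88), and Ocln was number 5 among all genes by r with Epcam. Tjp1 had an r of -0.45 to -0.65 with the 4 epithelial genes in mucosa, but by rank the relation was weak (rho -0.10 to -0.33). These are descriptions without a test, since the libraries share the composition of the dissected tissue, differ in depth and fall into treatment groups.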

How the data were processed

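The authors extracted total RNA, depleted ribosomal RNA, prepared stranded libraries, sequenced paired-end reads on 2 flow cells and added both sets of counts per sample. The deposited values are raw counts of reads per gene (32754 Ensembl genes, 18 libraries). The submitters' processing notes name FastQC 0.11.9, MultiQC 1.13, Trim Galore 0.6.10, STAR 2.7.10a, SAMtools 1.17, featureCounts 2.0.3 and the build Rnor_6.0. The annotation release and the strand setting of the counting are not given in the sources used here, so reads of overlapping and antisense genes may be included. Libraries were mapped to groups by their titles, 0 columns of samples were unused, 0 entries lacked a gene, and 0 of 153 library pairs held identical counts. All libraries carry the same batch label.

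Genes above 1 CPM in at least 3 of 18 libraries were tested by the edgeR quasi-likelihood test (edgeR 4.0.16, R 4.3.3, TMM, two-sided, Benjamini-Hochberg over all genes of a comparison, threshold 0.05). Comparisons between groups used the 9 libraries of a layer (15721 genes with counts in detrusor, 15738 in mucosa), and those between layers used all 18. SE is the log2 fold change divided by the square root of F. The biological coefficient of variation was 26.5% in detrusor and 20% in mucosa, and with 3 libraries a group this sets the precision. Alternatives were DESeq2 1.42.0, its size factors, no filter, a replicate block and leaving out each library. The scripts were tested on simulated data.

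The members and lists were chosen with earlier results of these data known. Symbols of the 5 genes come from the definition of the set, and all 5 were named by rule. No table used here pairs Ensembl IDs with symbols, so marker lists (uroplakins, keratins, smooth muscle and other cell types) and the genes most like each member were not used, and genes enriched in a layer stood in for uroplakins. The place scale with these genes, the ratios (0.5 added to each count), the mucosal covariate, the joint removal of 2 libraries, the contrast of both injured groups and the covariate and contrast fits without SCI-vehicle detrusor replicate 1 were chosen after seeing the data. Sequences are from RefSeq, build GRCr8, which is not the build of the counts, and motifs were searched on both strands.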

Additional observations from a re-analysis of the deposited data

How the results depend on the processing

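Each of 60 log2 fold changes (5 genes in 12 comparisons) was recomputed in up to 22 alternatives, 1110 values in all. Of these, 1058 kept direction and side of the threshold, 7 came to pass it, 0 ceased to pass it and 45 changed sign. The 45 concern 19 fold changes, none of which passed the threshold before or after (smallest adjusted p after the change 0.699, edgeR). The 4 epithelial genes stayed called higher in mucosa in each treatment group under every alternative run. Tjp1 joined them in SCI-inosine with DESeq2 and without SCI-inosine detrusor replicate 1. The number called in detrusor SCI-vehicle versus Control was 0, but 1 with DESeq2 and 3 with no filter on low counts. In detrusor SCI-inosine versus Control it was 0 to 1 over the left-out libraries, with 1 without SCI-vehicle replicate 1. The cause was not tested. The place of Krt8 in SCI-vehicle detrusor replicate 1 ran from 46.5% without Control mucosa replicate 2 to 91.4% without Control mucosa replicate 1.

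Of SCI-inosine versus SCI-vehicle in detrusor, the log2 fold change over the left-out libraries ran from -1.73 to 1.29 for Cdh1, -2.22 to 0.80 for Epcam, -1.34 to 0.42 for Krt8, -1.15 to 1.37 for Ocln and -0.131 to 0.065 for Tjp1. With the mucosal covariate Cdh1 was 0.24, and without both SCI-vehicle replicate 1 and SCI-inosine replicate 2 Cdh1, Epcam, Krt8 and Tjp1 were 0.79, 0.50, 0.09 and 0.084. With the mucosal covariate and without SCI-vehicle replicate 1, Ocln and Tjp1 were -1.02 and 0.33 there, and Epcam, Ocln and Tjp1 were -0.29, -0.75 and 0.087 in SCI-inosine versus Control. In mucosa the ranges over left-out libraries were -0.106 to 0.028 for Tjp1, 0.29 to 0.91 for Cdh1 and 0.41 to 1.31 for Krt8 in SCI-vehicle versus Control, -0.20 to 0.52, -0.23 to 1.16 and -0.100 to 0.028 for Cdh1, Krt8 and Tjp1 in SCI-inosine versus Control, and -0.92 to 0.17 and -0.041 to 0.054 for Krt8 and Tjp1 in SCI-inosine versus SCI-vehicle. The interaction of SCI-inosine versus SCI-vehicle ran from -1.32 to 1.68 for Cdh1, -1.92 to 1.09 for Epcam, -1.17 to 0.58 for Krt8, -0.81 to 1.71 for Ocln and -0.108 to 0.073 for Tjp1. For Tjp1 it was -0.015 with size factors, -0.016 with DESeq2 and -0.005 with no filter.

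Replicate numbers were shared by all groups, and same-numbered libraries of the 2 layers deviated together weakly (r from 0.01 to 0.23, above 0 in 9 of 9 pairs, against 3 of 18 pairs of different numbers, with r from -0.24 to 0.12). Deviations were taken from group means, so higher values at the same number force lower ones at different numbers. The 3 of 18 is therefore not a separate comparison. Only 5 of the 9 same-numbered pairs were above 0.1, same-numbered libraries within a layer ran from -0.26 to 0.46, and no label ties the numbers to animals, so the numbers were not taken as pairs. With the replicate number as a block, the count called changed in none of the 12 comparisons and 2 interactions of SCI-inosine versus SCI-vehicle changed sign, Cdh1 at 0.37 and Tjp1 at -0.006. Low counts in Control detrusor, down to 1 for Ocln, limit the precision of the detrusor fold changes versus Control of the epithelial genes.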
